A study of Mus musculus with 6 samples.

Results

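The genes described here are 45 genes of the cell division cycle, chosen by name: 13 for DNA replication (the Mcm helicase subunits, Pcna, the Rrm ribonucleotide reductase subunits, Prim1, Pola1, Lig1 and Fen1), 19 for mitosis and 13 for G1 to S control and other S phase functions. Each gene was read through the probe sets that the platform annotation gives its symbol alone, taking the probe set with the highest mean over the arrays. Of the 45 genes, 42 had such a probe set, among 8251 genes with one on the array, and 37 passed the filter on low intensity, among 5696 genes that did. The 37 are 11 DNA replication genes, 15 mitosis genes and 11 of the remaining kind. Below the filter were Mcm6, Lig1, Aurkb, Foxm1 and Ccne2, and Ccnb1, Bub1b and Tyms had no probe set carrying their symbol alone.

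RNA came from the whole brains of mouse embryos of 3 ages, embryonic days E14.5, E16.5 and E18.5. At each age there was 1 array from Top2b+/+ embryos and 1 from top2b-/- embryos, 6 Affymetrix MG_U74Av2 arrays in all, and both genotypes had a 129SvEv (minor 129SvJ) background. Top2b encodes DNA topoisomerase II beta, an enzyme that passes one DNA duplex through another and is made in neurons that no longer divide. By their labels 5 arrays are from males, and the E16.5 array of the top2b-/- genotype is from a female. How the allele was made, and whether brains were pooled, is not stated in them. Because each combination of genotype and age was read once, the genotypes were the only replication of age and the ages the only replication of genotype. The p-values below measure the spread of these 6 arrays around an additive model, with 2 residual degrees of freedom before moderation, and a difference at one age or within one genotype has a value but no test.

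A cell copies its DNA in S phase and divides the copies in mitosis. The Mcm proteins form the helicase that opens the replication fork, the sliding clamp Pcna holds the polymerases on DNA, and ribonucleotide reductase makes the deoxynucleotides. Entry into mitosis depends on Cdk1 with A-type and B-type cyclins, and the spindle is built and watched by motor proteins, mitotic kinases and the checkpoint proteins that hold back Cdc20. In the embryonic brain dividing cells line the ventricles, and their share falls as neurons accumulate. Transcription of many of these genes is tied to the cycle: E2F sites are known from genes of S phase, and the cell cycle homology region (CHR), often beside CCAAT boxes, from genes of mitosis.

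Promoter sequence is shown for 6 of the genes because the group is read together below and these elements are the known cycle-dependent ones of its S phase and mitosis genes. The 100 bases before the RefSeq start site (GRCm38.p6) were available for 37 of the 45 genes, whether or not their probe sets passed the filter, and were searched on both strands for TTTGAA (CHR), CCAAT, and TTNGCGC or TTNCCGC (E2F). For the 3 mitosis genes with the largest age difference among those with a CHR match, capitals mark TTTGAA and CCAAT in either orientation. E2F letters are left in lower case there. They lie upstream of Cdk1 at chr10:69352913-69353012 (minus strand), Kif11 at chr19:37376282-37376381 (plus strand) and Mki67 at chr7:135716380-135716479 (minus strand).
Cdk1: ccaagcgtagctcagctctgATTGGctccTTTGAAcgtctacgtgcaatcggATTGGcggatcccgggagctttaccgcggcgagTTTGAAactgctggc
Kif11: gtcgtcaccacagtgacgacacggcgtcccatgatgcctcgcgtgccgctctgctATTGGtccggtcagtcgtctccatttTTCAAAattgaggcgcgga
Mki67: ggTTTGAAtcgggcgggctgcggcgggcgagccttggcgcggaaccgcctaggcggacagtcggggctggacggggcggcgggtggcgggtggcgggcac
For the 3 replication genes with the largest age difference among those with an E2F match, capitals mark the E2F letters, and CCAAT is left in lower case. They lie upstream of Rrm1 at chr7:102441595-102441694 (plus strand), Fen1 at chr19:10203922-10204021 (minus strand) and Prim1 at chr10:128015115-128015214 (plus strand).
Rrm1: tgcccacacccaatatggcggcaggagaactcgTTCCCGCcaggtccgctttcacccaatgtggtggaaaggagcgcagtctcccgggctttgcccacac
Fen1: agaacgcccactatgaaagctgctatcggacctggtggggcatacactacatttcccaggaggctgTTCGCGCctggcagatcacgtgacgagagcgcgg
Prim1: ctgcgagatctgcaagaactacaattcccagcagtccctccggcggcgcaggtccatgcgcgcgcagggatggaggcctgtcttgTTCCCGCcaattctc
The Cdk1 stretch held 2 CHR and 2 CCAAT matches, the Kif11 stretch 1 of each, and the Mki67 stretch 1 CHR match with no CCAAT match. The Cdk1 stretch (ttaccgc) and the Mki67 stretch (ttggcgc) also held an E2F match. In Prim1 the last base of the E2F match is also the first base of a CCAAT match. The shares that follow count genes, and a gene was taken to hold a match if any of its RefSeq promoters did. A CHR match was held by 4 of 14 mitosis genes (28.6%), 1 of 12 replication genes (8.33%) and 6.76% of all 27025 genes with a promoter. CCAAT was held by 10 of 14 mitosis genes (71.4%), 9 of 12 replication genes (75.0%) and 21.6% of all. An E2F match was held by 4 of 12 replication genes (33.3%), 2 of 14 mitosis genes (14.3%) and 6.74% of all. Of the 11 genes of the remaining kind, G1 to S control and other S phase, 1 held a CHR match (9.09%), 4 held CCAAT (36.4%) and 1 an E2F match (9.09%). CHR and CCAAT in the same promoter were held by 3 mitosis genes (21.4%), by no replication gene, by 1 of the remaining kind and by 1.26% of all genes. The matches describe letters in a short window, and a promoter without one says nothing of binding by these factors.

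The deposited values are linear intensities. They were scaled here so that every array had the same median (76.5), with factors of 0.919 to 1.38, the highest for the Top2b+/+ E16.5 array, whose deposited median was 55.5 against 78.0 to 83.2 on the other arrays. Intensities below are on that scale and are listed in order of age; log2 differences are E18.5 minus E14.5 with genotype in the model, ± SE, and p-values are from limma, adjusted by Benjamini-Hochberg over 7453 probe sets. A reading was taken to be within noise when it was no higher than the size of its array's 5th percentile of intensity, 26.9 to 40.7 after scaling. Top2b itself, the check of the genotypes, read 538, 281 and 326 in Top2b+/+ brains and 48.1, 45.6 and 34.4 in top2b-/- brains, a log2 genotype difference of -3.12 ± 0.22 (limma, adjusted p = 0.0355).

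Across both genotypes the cell division genes were lower at E18.5 than at E14.5 as a group. Of the 37 tested, 36 had a lower value and 22 fell past the threshold (limma, adjusted p under 0.05), while none rose. Over all genes tested, 3121 of 5696 had a lower value, 1.05% fell and 0.597% rose. At an unadjusted p under 0.05, 35 were lower, against 11.5% of all genes. The median log2 difference was -1.46, against -0.05 over all genes. In 36 of the 37 both E14.5 readings lay above both E18.5 readings, as they did in 32.7% of all genes. At least 2-fold lower readings at E18.5 than at E14.5 in both genotypes were found for 27 of the 37, against 1.91% of all genes. The 3 genes that were dim at E18.5, Bub1, Rad51ap1 and Tk1, passed the filter through their earlier readings; of the other 34, 33 had a lower value and 20 fell, with a median of -1.42. The 22 calls lie close to the threshold, with adjusted p from 0.0112 to 0.0495, and most were lost when any array was left out: the count was 0 without either E16.5 array or either E18.5 array, 3 without the Top2b+/+ E14.5 array and 1 without the top2b-/- E14.5 array, while 36 or 37 of the values stayed lower. It was also 0 with no intensity filter and 0 with no trend of variance on intensity. RNA of a whole brain cannot tell fewer dividing cells from less RNA per dividing cell.

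**Figure D1:**
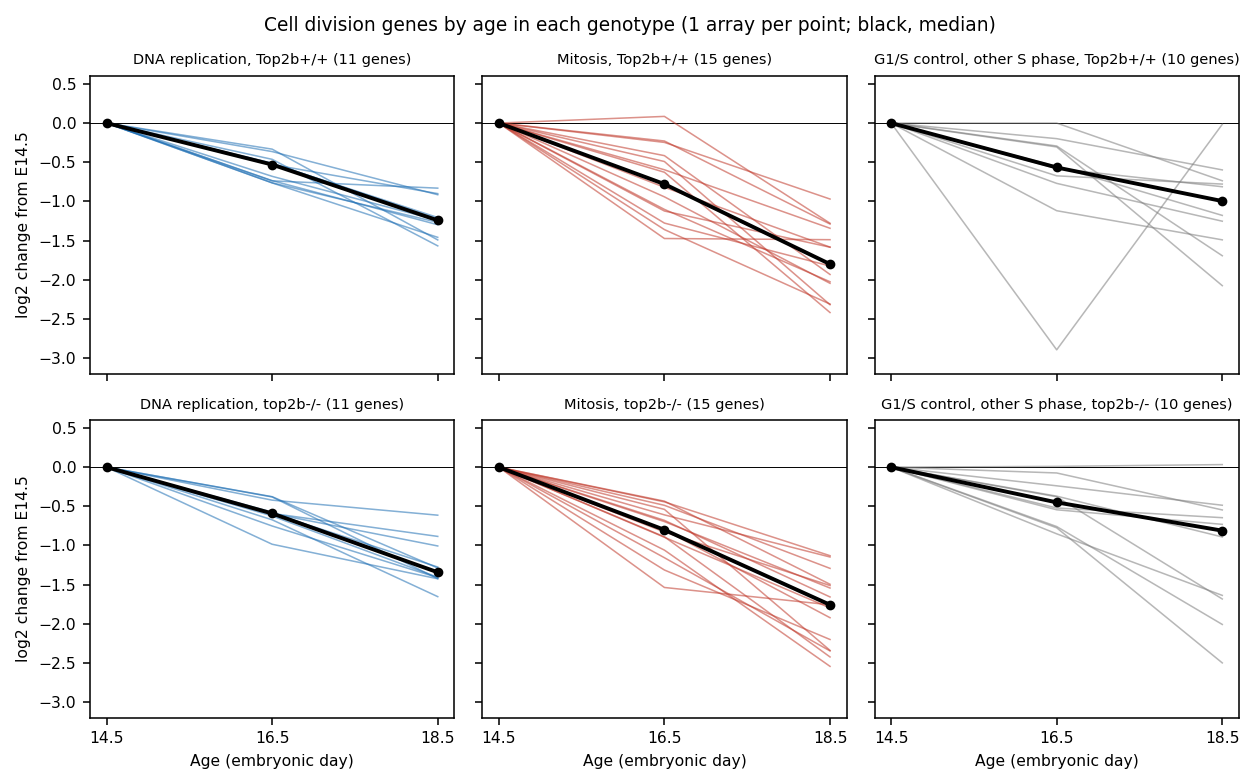
Log2 change of each tested gene from its own E14.5 reading (y axis) against embryonic day (x axis), by role (columns) and genotype (rows), 1 array per point; coloured lines are genes, the black line is their median, and Tk1, with readings within noise in top2b-/- brains, is left out. The median at E18.5 was -1.24 in Top2b+/+ and -1.34 in top2b-/- brains for DNA replication and -1.80 and -1.76 for mitosis; the grey line that dips at E16.5 is Ccne1.

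Genes of DNA replication were lower at E18.5 in 11 of 11 cases, and 8 fell, with a median of -1.32 (-1.24 in Top2b+/+ and -1.34 in top2b-/- brains). The replicative helicase was represented by 5 subunits. Mcm2 read 303, 178 and 110.2 in Top2b+/+ and 281, 189 and 111 in top2b-/- brains, a log2 difference of -1.40 ± 0.17. Mcm3 read 649, 453 and 281 in Top2b+/+ and 693, 461 and 286 in top2b-/- brains (-1.24 ± 0.12). Mcm7 read 722, 450.4 and 305 in Top2b+/+ and 825, 535 and 311 in top2b-/- brains (-1.32 ± 0.13). In each of these the 2 genotypes followed each other closely, and no E18.5 reading reached an E16.5 reading. Mcm5 read 614, 488 and 218 in Top2b+/+ and 511, 393 and 191 in top2b-/- brains (-1.46 ± 0.13), with its larger difference in the later interval. The value of Mcm5 holds for its brightest probe set only: the mean over both of its probe sets gave -0.62 (adjusted p = 0.553). Mcm4 read 375, 291 and 199 in Top2b+/+ and 375, 289 and 154 in top2b-/- brains (-1.10 ± 0.17), and at an adjusted p of 0.0502 it did not pass. The adjusted p of the 4 subunits that fell was 0.0304 to 0.0333. Mcm6, the remaining subunit, read 0.06 to 22.1, within noise on all 6 arrays.

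Both subunits of ribonucleotide reductase, which turns ribonucleotides into deoxyribonucleotides, fell. Rrm1, the large subunit, read 473, 343 and 159.5 in Top2b+/+ and 507, 301 and 191 in top2b-/- brains (-1.49 ± 0.17, adjusted p = 0.0333). Rrm2, the small subunit, read 418, 293 and 178 in Top2b+/+ and 433, 287 and 216 in top2b-/- brains (-1.12 ± 0.15, adjusted p = 0.0403). For both, all E18.5 readings lay below all E16.5 readings and these below all E14.5 readings. Fen1, the nuclease that trims the flaps of Okazaki fragments, read 368, 221 and 149 in Top2b+/+ and 372, 233 and 118 in top2b-/- brains (-1.48 ± 0.18, adjusted p = 0.0333). Pola1, the catalytic subunit of DNA polymerase alpha, read 194, 114 and 80.5 in Top2b+/+ and 215, 109 and 79.9 in top2b-/- brains (-1.35 ± 0.20, adjusted p = 0.0495). These too were in the order of age in both genotypes. Smaller differences that did not pass came from the clamp and the primase. Pcna read 1619, 1122 and 867 in Top2b+/+ and 1551, 1159 and 1014 in top2b-/- brains (-0.76 ± 0.13, adjusted p = 0.0597). Prim1, the small primase subunit, read 338, 202 and 189.8 in Top2b+/+ and 398, 264 and 216 in top2b-/- brains (-0.86 ± 0.15, adjusted p = 0.0611), with most of the difference already present at E16.5. Lig1, the ligase that seals Okazaki fragments, read 4.95 to 22.6, within noise on all 6 arrays.

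The mitosis genes were lower at E18.5 in 15 of 15 cases, and 12 fell, with a median of -1.67 (-1.80 in Top2b+/+ and -1.76 in top2b-/- brains). At least 2-fold lower readings in both genotypes were found for 14 of them, all but Ccnb2, which was 1.96-fold lower in Top2b+/+ brains. Of the cyclins and Cdk1 that drive entry into mitosis, with the phosphatase Cdc25c that activates Cdk1, the 4 genes tested all fell. Cyclin A2 had the largest difference of the group: Ccna2 read 662, 428 and 124 in Top2b+/+ and 583, 401 and 115 in top2b-/- brains (-2.38 ± 0.14, adjusted p = 0.0112). Cdk1, the mitotic kinase itself, read 810.3, 577 and 162 in Top2b+/+ and 806, 324 and 175 in top2b-/- brains (-2.26 ± 0.25, adjusted p = 0.0333). Its top2b-/- reading at E16.5 was the lower one of that age by a wide margin, while the E14.5 and E18.5 readings were close between genotypes. Ccnb2, cyclin B2, read 682, 575 and 348 in Top2b+/+ and 974, 549 and 342 in top2b-/- brains (-1.24 ± 0.18, adjusted p = 0.0475). Cdc25c read 191, 87.7 and 63.7 in Top2b+/+ and 198, 123 and 62.7 in top2b-/- brains (-1.62 ± 0.24, adjusted p = 0.0475). In each of these 4 genes the ages did not overlap.

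Of the spindle checkpoint, the 3 genes that could be tested fell. Bub1, a checkpoint kinase of the kinetochore, read 173, 67.5 and 34.9 in Top2b+/+ and 185, 83.2 and 36.5 in top2b-/- brains (-2.33 ± 0.25, adjusted p = 0.0333). Mad2l1, which binds and holds Cdc20, read 344, 227 and 136 in Top2b+/+ and 325, 239.5 and 149 in top2b-/- brains (-1.24 ± 0.16, adjusted p = 0.0345). Cdc20, the activator of the anaphase-promoting complex, read 638, 544 and 261 in Top2b+/+ and 623, 445 and 254 in top2b-/- brains (-1.29 ± 0.14, adjusted p = 0.0333). The readings of Bub1 dropped to near the noise limit at E18.5, whereas those of Mad2l1 and Cdc20 were well above it at every age.

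The motors and other spindle proteins fell in 4 of 4 cases, with differences from -1.67 to -2.18. Kif11, the motor that pushes the spindle poles apart, read 222, 129 and 63.6 in Top2b+/+ and 214, 132 and 73.3 in top2b-/- brains (-1.67 ± 0.20, adjusted p = 0.0333). Kif20a, a motor of cytokinesis, read 286, 133 and 70.3 in Top2b+/+ and 298, 171 and 78.5 in top2b-/- brains (-1.97 ± 0.19, adjusted p = 0.0304). Its second probe set gave -2.22 but did not pass (limma, adjusted p = 0.0572). The E18.5 readings of that probe set, 26.8 in Top2b+/+ and 19.8 in top2b-/- brains, were within noise. Kif4, a chromosome-bound motor, read 198, 81.7 and 55.9 in Top2b+/+ and 209, 113 and 60.2 in top2b-/- brains (-1.81 ± 0.23, adjusted p = 0.0345). These 3 motors were in the order of age in both genotypes. Ckap2, a protein of spindle microtubules, read 504, 377 and 132 in Top2b+/+ and 397, 214 and 74.0 in top2b-/- brains (-2.18 ± 0.19, adjusted p = 0.0304), and was lower in the top2b-/- brain at each age. Mki67, whose protein coats mitotic chromosomes and is the common marker of dividing cells, read 443, 251 and 148 in Top2b+/+ and 438, 325 and 156 in top2b-/- brains (-1.54 ± 0.17, adjusted p = 0.0333). As for Mcm5, that value is of the brightest probe set, and the mean over both probe sets of Mki67 gave -0.60 (adjusted p = 0.346).

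Of the mitotic kinases and the chromosomal passenger complex, 3 genes were tested; each had a lower value and none passed. Aurka, the spindle pole kinase, read 190.5, 99.1 and 46.1 in Top2b+/+ and 174, 114 and 78.8 in top2b-/- brains (-1.60 ± 0.28, adjusted p = 0.0642). Birc5, which encodes survivin of the chromosomal passenger complex, read 259.9, 93.6 and 92.6 in Top2b+/+ and 292, 140.3 and 50.2 in top2b-/- brains (-2.02 ± 0.37, adjusted p = 0.0682). Plk1, a kinase of mitotic entry and exit, read 229.8, 244 and 94.7 in Top2b+/+ and 242, 83.5 and 71.7 in top2b-/- brains (-1.52 ± 0.40, adjusted p = 0.120). For these genes the 2 genotypes disagreed in size or timing: Birc5 was 2.81-fold lower at E18.5 in Top2b+/+ and 5.83-fold in top2b-/- brains, Aurka 4.13-fold and 2.21-fold, and the Top2b+/+ reading of Plk1 at E16.5 was as high as at E14.5. A second probe set of Plk1 read 207, 160 and 91.4 in Top2b+/+ and 187, 125 and 97.5 in top2b-/- brains, without that disagreement. Below the filter, Aurkb was no higher than noise on 4 of 6 arrays, and Foxm1, the transcription factor of the mitotic programme, read 13.6 to 63.0.

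**Figure D2:**
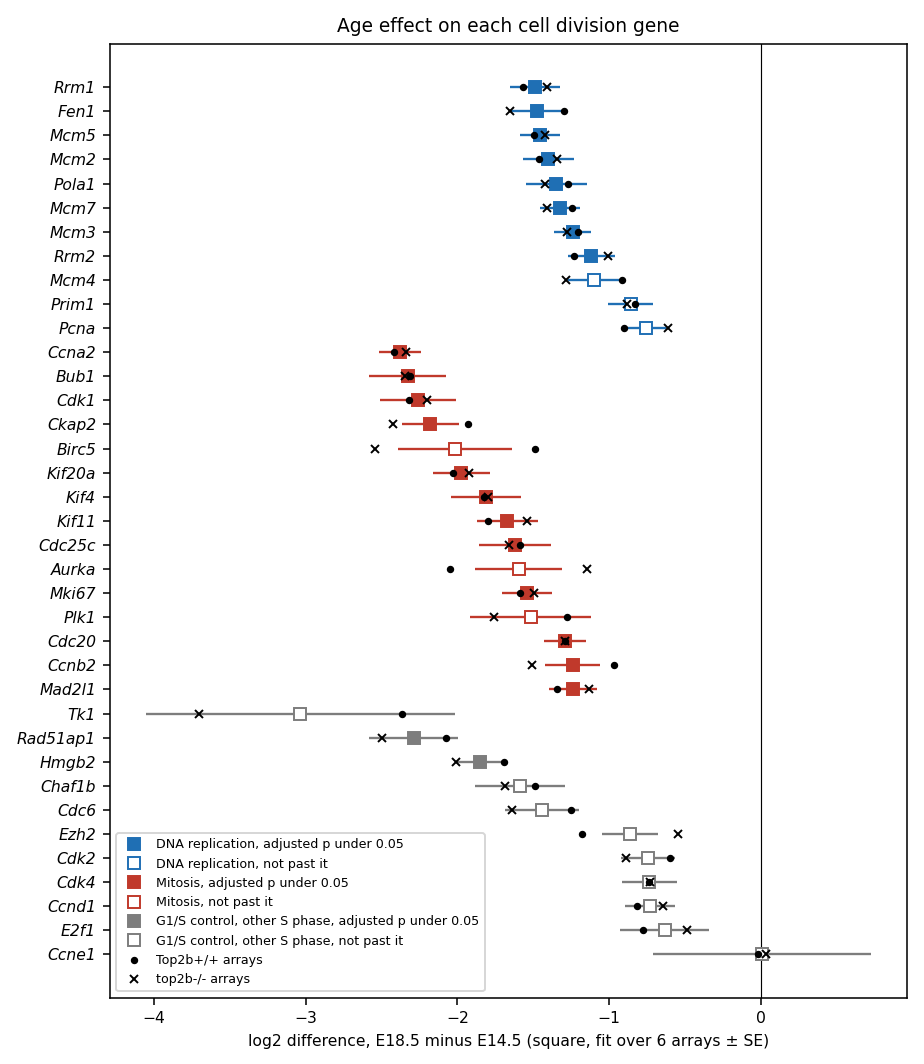
Log2 difference E18.5 minus E14.5 (x axis) of each tested gene (y axis), grouped by role; squares with bars give the fit over 6 arrays ± SE, filled where the adjusted p was under 0.05, and dots and crosses give the single Top2b+/+ and top2b-/- differences. The 8 DNA replication genes that fell lie between -1.12 and -1.49 and the 12 mitosis genes between -1.24 and -2.38; only Ccne1, at 0.01, lies above 0.

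Genes of G1 to S control and other S phase functions were mixed: 10 of 11 had a lower value, 2 fell, and the median was -0.86 (-1.18 in Top2b+/+ and -0.89 in top2b-/- brains). Both that fell act on chromatin or in repair. Hmgb2, a chromatin protein of dividing cells, read 1678, 1369 and 519 in Top2b+/+ and 1992, 1178 and 495 in top2b-/- brains (-1.85 ± 0.15, adjusted p = 0.0259). Rad51ap1, a DNA repair gene, read 105, 84.8 and 24.8 in Top2b+/+ and 147, 85.8 and 25.9 in top2b-/- brains (adjusted p = 0.0345). Both of its E18.5 readings lay within noise, and against the noise limit it was at least 3.80-fold lower. Ezh2, the methyltransferase of Polycomb, read 647, 441 and 286 in Top2b+/+ and 509, 484 and 348 in top2b-/- brains (-0.86 ± 0.19, adjusted p = 0.0883). Chaf1b, a histone chaperone subunit, read 176, 81.1 and 62.7 in Top2b+/+ and 186, 143 and 57.8 in top2b-/- brains (-1.59 ± 0.30, adjusted p = 0.0693). Neither Ezh2 nor Chaf1b passed.

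None of the 6 genes of G1 to S control passed. Cdc6, the loader of the Mcm helicase, read 143, 83.9 and 60.03 in Top2b+/+ and 157, 86.9 and 50.4 in top2b-/- brains (-1.45 ± 0.24, adjusted p = 0.0582), the largest difference of the 6. Cyclin D1 starts the passage through G1 with its partner Cdk4, and Cdk2 acts after them. Ccnd1 read 249, 166 and 142 in Top2b+/+ and 266, 185 and 170.1 in top2b-/- brains (-0.73 ± 0.17, adjusted p = 0.0962). Cdk4 read 2516, 2517 and 1509 in Top2b+/+ and 2779, 1906 and 1676 in top2b-/- brains (-0.73 ± 0.18, adjusted p = 0.103). Cdk2 read 206, 179.8 and 136 in Top2b+/+ and 229, 177 and 123 in top2b-/- brains (-0.74 ± 0.18, adjusted p = 0.103). The sizes of these 3 were about equal, and Cdk4 was as high at E16.5 as at E14.5 in Top2b+/+ brains. E2f1, the transcription factor E2F1, read 85.3, 53.4 and 49.7 in Top2b+/+ and 72.6, 61.6 and 51.9 in top2b-/- brains (-0.63 ± 0.29, adjusted p = 0.302). Ccne1, cyclin E1, read 322, 43.3 and 318 in Top2b+/+ and 344, 346 and 352 in top2b-/- brains (0.01 ± 0.72, adjusted p = 0.996). It was level on 5 arrays and low on the Top2b+/+ E16.5 array alone. Tk1, the salvage kinase for thymidine, read 229, 75.1 and 44.4 in Top2b+/+ and 153, -14.9 and 11.7 in top2b-/- brains, with both later top2b-/- readings within noise; against the noise limit it was at least 4.94-fold lower at E18.5, and the fitted difference did not pass (adjusted p = 0.184) but did with readings floored at the noise limit (adjusted p = 0.0240). Ccne2 read 10.3 to 32.4, within noise on all 6 arrays.

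The next comparison asked when between E14.5 and E18.5 the readings came down. In 31 of the 37 genes, both E14.5 readings lay above both E16.5 readings and these above both E18.5 readings, as in 7.23% of all genes; the other 6 were Prim1, Plk1, Ccne1, Ccnd1, Cdk4 and Tk1. Each genotype taken alone read lower at each step in 33 genes, against 11.4% of all genes. From E14.5 to E16.5 the median log2 change was -0.65 and all 37 values were lower, and from E16.5 to E18.5 it was -0.73 with 35 lower. Over all 5696 genes tested, 2574 values were lower for the first step and 3570 for the second. None of the 37 passed the threshold for either step in limma after adjustment, as against 0.0176% of all genes for the first step and none for the second. At an unadjusted p under 0.05 there were 29 for the first step, against 12.6% of all genes in either direction, and 28 for the second, against 7.34%.

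The median log2 change of the replication genes by E16.5 was 42.6% of their median change by E18.5 in Top2b+/+ and 44.0% in top2b-/- brains, and that of the mitosis genes 43.3% and 45.5%. These shares rest on how the Top2b+/+ E16.5 array is scaled: without scaling the Top2b+/+ shares were 83.6% and 72.1%, with quantile normalization 55.4% and 45.4%, and the top2b-/- shares stayed between 42.4% and 45.3% under both. Without scaling the median of all probe sets also moved, by -0.24 for the first step and 0.19 for the second. Single genes differed in timing. The second step was the more negative log2 change in both genotypes for 12 of the 37 genes, against 2017 of the 5696 genes tested. The first step was the more negative one in both for 7, against 836 of the 5696. These counts go by sign, so genes that rose are counted too. Among the 7 are Ccne1, with top2b-/- steps of 0.01 and 0.02, and Tk1, with a second top2b-/- step of 2.29. Ccna2 had reached 26.0% of its difference by E16.5 in Top2b+/+ and 23.1% in top2b-/- brains, Mcm5 22.3% and 26.7%. Those of Mcm5 hold for its brightest probe set only, as its second did not follow the same course. For Prim1 the shares were 88.8% and 66.8%, and for Pola1 60.1% and 69.0%.

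A test of the second step against the first passed for none of the 37 genes in limma after adjustment, nor for any of the 5696 genes tested. At an unadjusted limma p under 0.05 there were 5, against 4.71% of all genes, and each had an adjusted p of 0.898. In Ccna2 (-1.21 ± 0.24), Mcm5 (-0.74 ± 0.23), Hmgb2 (-0.80 ± 0.26) and Ckap2 (-0.87 ± 0.33) the later step was the larger one, and in Tk1 the earlier one (4.57 ± 1.76). Without scaling the first 4 values shrank to -0.69, -0.22, -0.28 and -0.35 and none of them kept its unadjusted p under 0.05, while Tk1 went to 5.20 and passed (limma, adjusted p = 0.00121). The value of Tk1 rests on its negative top2b-/- reading at E16.5, set to the floor: it was 0.85 without that array and 1.21 with readings floored at the noise limit. With either E16.5 array left out, only Ccna2 of the 5 kept its unadjusted p under 0.05 both times, at -1.16 and -1.26. Without the Top2b+/+ E16.5 array Mcm5 was -0.66, Hmgb2 -0.49 and Ckap2 -0.65, and without the top2b-/- one they were -0.82, -1.11 and -1.10. The more negative step often lay in different intervals in the 2 genotypes: only 12 of the 37 genes had it later in both and 7 earlier. Birc5 and Cdk1 were among the genes that differed so. Birc5 had reached 99.0% of its difference by E16.5 in Top2b+/+ and 41.7% in top2b-/- brains, Cdk1 21.2% and 59.7%. These shares rest on single arrays, and those of Top2b+/+ brains on the scaling of the E16.5 array.

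**Figure D3:**
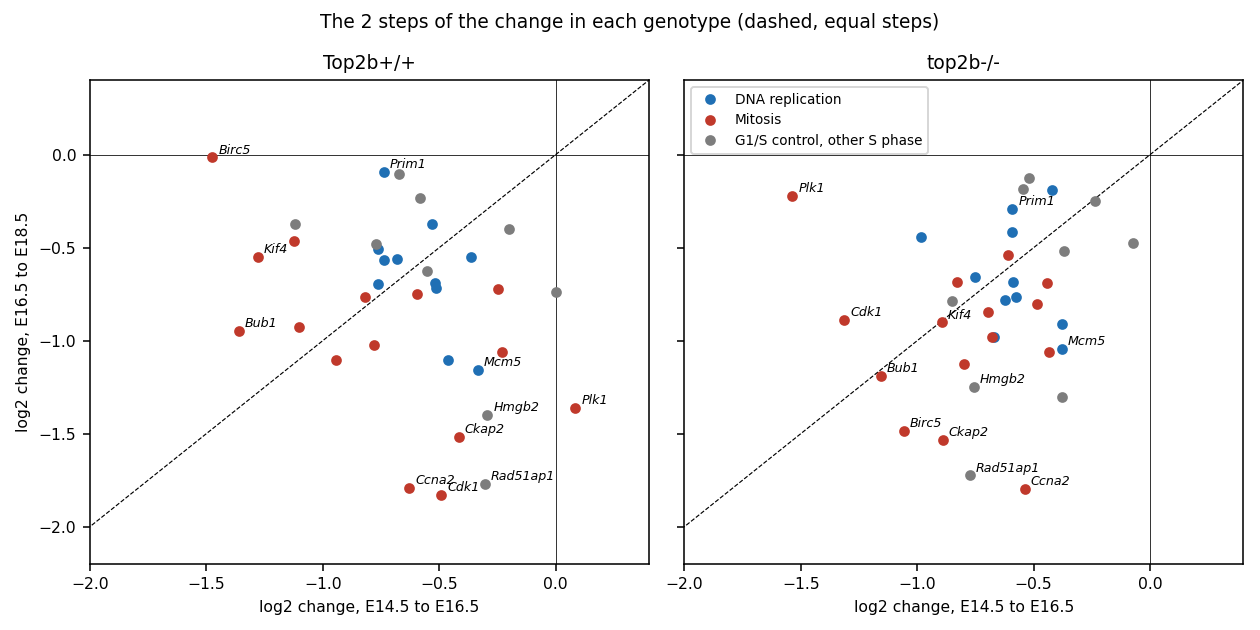
Log2 change from E16.5 to E18.5 (y axis) against that from E14.5 to E16.5 (x axis) for each tested gene in Top2b+/+ (left) and top2b-/- brains (right), 1 array per age; the dashed line marks equal steps, and Tk1 and Ccne1, which lie off the scale, are left out. Ccna2, Mcm5, Hmgb2 and Ckap2 are among the 12 genes below the line in both panels. Birc5, Plk1 and Cdk1 are among the many that change sides between them.

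The cell division genes were also compared between top2b-/- and Top2b+/+ brains. Over the 3 ages, 22 of the 37 had a higher value and 15 a lower one in top2b-/- brains, with a median log2 difference of 0.04. None passed the threshold in limma; over all genes 0.0351% were lower and 0.0176% higher past it. At an unadjusted p under 0.05 there were 2, Ckap2 and Tk1, against 6.41% of all genes. Ckap2 was lower in top2b-/- brains at 3 of 3 ages, 504 against 397 at E14.5, 377 against 214 at E16.5 and 132 against 74.0 at E18.5 (log2 -0.66 ± 0.16, unadjusted p = 0.00614, adjusted p = 0.496). Tk1 was lower at 3 of 3 ages as well (unadjusted p = 0.0264, adjusted p = 0.722), but its later top2b-/- readings were within noise, and with readings floored at the noise limit the difference was -0.64 (adjusted p = 0.660).

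No difference between genotypes in the size of the age effect was detected. The E18.5 minus E14.5 difference was larger in top2b-/- brains for 19 genes and larger in Top2b+/+ brains for 18, and the interaction of genotype with age passed for none of the 37 in limma, nor at an unadjusted p under 0.05, where 4.06% of all genes lay. With 1 residual degree of freedom before moderation that test can miss real differences. The typical genotype difference in either direction was log2 0.10 at E14.5, 0.21 at E16.5 and 0.14 at E18.5, against 0.18, 0.28 and 0.17 over all genes. With readings floored at the noise limit, none of the 37 was 2-fold or more apart at E14.5 (3.02% of all genes were), 2 were at E16.5 (5.65%) and 0 at E18.5 (3.37%). The 2 at E16.5 were Plk1, 244 in Top2b+/+ and 83.5 in top2b-/- brains, and Ccne1, 43.3 and 346. The value of Plk1 is of its brightest probe set: the others read 160 and 125, and 101 and 56.5, on these arrays. Tk1, whose top2b-/- readings were within noise at E16.5 and E18.5, was at least 1.84-fold and at least 1.37-fold lower there. The E16.5 pair also differed in sex by its labels, in the scaling it needed and in other tissue: the summed intensity of meningeal and fibroblast markers was 7319 in the Top2b+/+ and 2905 in the top2b-/- array at that age, with 4168 and 4858 at E14.5. The part of these in the E16.5 values was not tested.

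**Figure D4:**
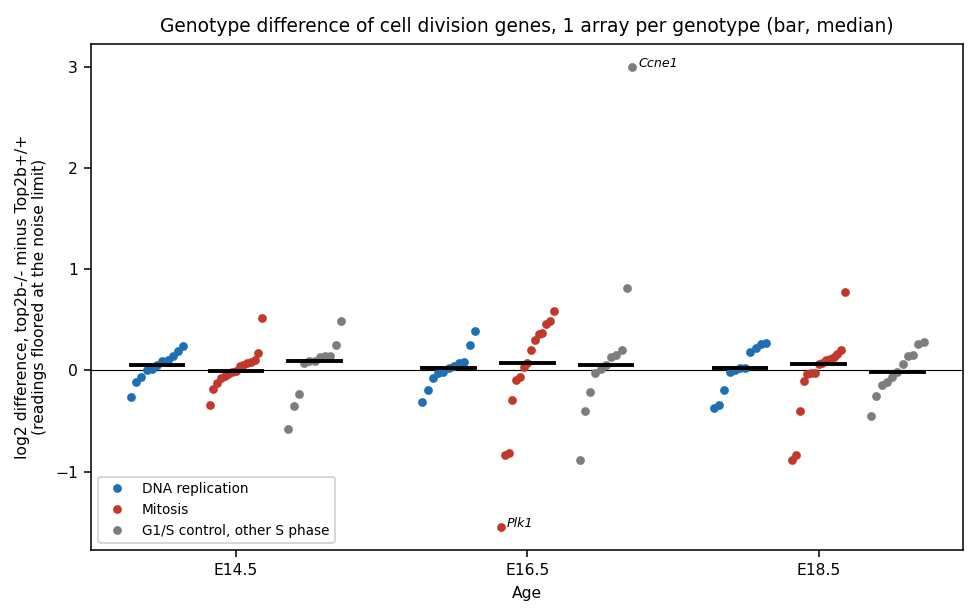
Log2 difference top2b-/- minus Top2b+/+ (y axis) of each tested gene at each age (x axis), coloured by role; each point compares 1 array with 1 array, readings are floored at the noise limit, and bars are medians. Most points lie near 0, and the labelled ones, Plk1 and Ccne1 at E16.5, are the genes 2-fold or more apart. The other probe sets of Plk1 were less than 2-fold apart at that age.

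Other genes of the same pathways, from lists that leave out the 45, were read in the same way. Over all genes tested, 3121 of 5696 had a lower value, 1.05% fell and 0.597% rose. Of 33 further genes of replication and S phase, 32 had a lower value at E18.5, 3 fell (Top2a, Uhrf1 and Gmnn), none rose, and the median was -0.81. At the ends of that list were Top2a, the topoisomerase II of dividing cells, at 398, 192 and 85.6 in Top2b+/+ and 328, 202 and 89.4 in top2b-/- brains (-2.05 ± 0.18, adjusted p = 0.0304), and the repair gene Brca1 (-1.83 ± 0.31, adjusted p = 0.0600), against the clamp loader subunit Rfc2 (-0.10 ± 0.13) and the origin recognition gene Orc1 (0.25 ± 0.54). Of 28 further mitosis genes, 26 had a lower value, 11 fell (Ttk, Kif2c, Kif22, Prc1, Cks1b, Cks2, Smc4, Anln, Ect2, Nusap1 and Cdca8), none rose, and the median was -1.12. The lowest were the checkpoint kinase Ttk (-1.95 ± 0.22, adjusted p = 0.0333) and the Cdk-binding Cks2 (-1.91 ± 0.14, adjusted p = 0.0209), and the highest the microtubule destabiliser Stmn1 (0.06 ± 0.16), which neurons make in quantity, and Mybl2 (0.37 ± 0.23).

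Regulators of the choice between dividing and leaving the cycle had medians nearer 0. Their counts of lower values stand beside 3121 of all 5696 genes tested. Of 11 G1 cyclins, kinases, E2F and pocket protein genes, 8 had a lower value, none fell or rose in limma, 5 had an unadjusted p under 0.05, and the median was -0.36. The pocket protein gene Rbl1 (-1.56 ± 0.25, adjusted p = 0.0516) and cyclin D2, Ccnd2 (-1.15 ± 0.30, adjusted p = 0.121), stood at the low end, and Mycn (0.24 ± 0.13) and Myc (0.83 ± 0.24, adjusted p = 0.145) at the high end. Of 11 genes for CDK inhibitors and cycle exit, 7 had a lower value, 1 fell and none rose, with a median of -0.22. The one that fell, Gadd45g, is also a marker of neurogenic progenitors (-1.35 ± 0.18, adjusted p = 0.0393). The inhibitor genes Cdkn1c (-0.65 ± 0.19, adjusted p = 0.137) and Cdkn1a (0.91 ± 0.16, adjusted p = 0.0642) and the cyclin G1 gene Ccng1 (0.26 ± 0.26, adjusted p = 0.633) did not pass. With any 1 of the 6 arrays left out, the further replication genes held 0 that fell, the further mitosis genes 0 or 1 and the CDK inhibitor list 0, while 30 to 32, 25 to 27 and 7 or 8 of them had a lower value.

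Some markers of the cells in the brain moved with age beside the cell division genes. Over all genes tested 1.05% fell and 0.597% rose. Neurogenic progenitor markers fell in 3 of 6 cases tested (Neurog2, Dll1 and Gadd45g), and their summed intensity went from 1841 through 1148 to 836 in Top2b+/+ and from 1835 through 1794 to 1145 in top2b-/- brains. Radial glia and neural progenitor markers were lower in 8 of 11 cases, beside 3121 of the 5696 genes tested. None of these markers fell or rose in limma. Their sum went down from 10811 through 9578 to 8959 in Top2b+/+ brains. In top2b-/- brains it went up from 10290 through 10838 to 10850. Neuron markers rose in 2 of 15 cases (Snap25 and Eno2), with a sum of 23423, 33723 and 29773 in Top2b+/+ and 23307, 26020 and 27231 in top2b-/- brains. Astrocyte markers rose in 3 of 8 cases (Aqp4, Apoe and Mt1), their sum going from 3168 to 6765 in Top2b+/+ and from 3124 to 6464 in top2b-/- brains. All Top2b+/+ sums at E16.5 rest on the scaling of that array, by a factor of 1.38. Its sum over all genes tested was also the highest, 3027518 against 2614776 to 2726062 on the other arrays.

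Of 8 erythroid markers tested, 2 fell, the embryonic globins Hbb-y, from 6281 to 35.04 in Top2b+/+ and from 5584 to 62.5 in top2b-/- brains, and Hba-x, from 2572 to 57.8 and from 2535 to 47.0. The adult globins Hba-a1 and Hbb-b2 and the heme enzyme Alas2 had age differences near 0, at 0.01, -0.10 and 0.02. Not all the rest were so level: 6 of the 8 had a lower value, with a median of -0.52. At least 2-fold lower readings in both genotypes were found for 3 of the 8, against 1.91% of all genes. The erythroid sum, which holds both kinds, was 23701, 17938 and 13323 in Top2b+/+ and 21703, 12864 and 14179 in top2b-/- brains. The erythroid genes Epb42, Epor and Hemgn were within noise on every array. Of 12 microglia and macrophage markers with a probe set, 6 were within noise on every array, Aif1, Itgam and Ptprc among them, and none of the 5 tested fell. Endothelial markers (9 tested), meningeal and fibroblast markers (7 tested) and cerebellar granule precursor markers (5 tested) held none that fell or rose, with medians of -0.12, 0.02 and 0.12, and Atoh1 of the granule precursors was within noise. Of 8 markers of liver, heart and muscle, 6 were within noise on every array, Alb and Myh6 among them. Summed over the 37 cell division genes, the intensity went from 18260 through 13166 to 7722 in Top2b+/+ and from 18954 through 12318 to 8027 in top2b-/- brains. With any 1 array left out, the calls of the neuron and neurogenic markers were 0, those of the astrocyte markers 0 or 1, and those of the erythroid markers 2. The part of the shifts in neuron, astrocyte, neurogenic progenitor and embryonic globin markers in that change was not tested.

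**Figure D5:**
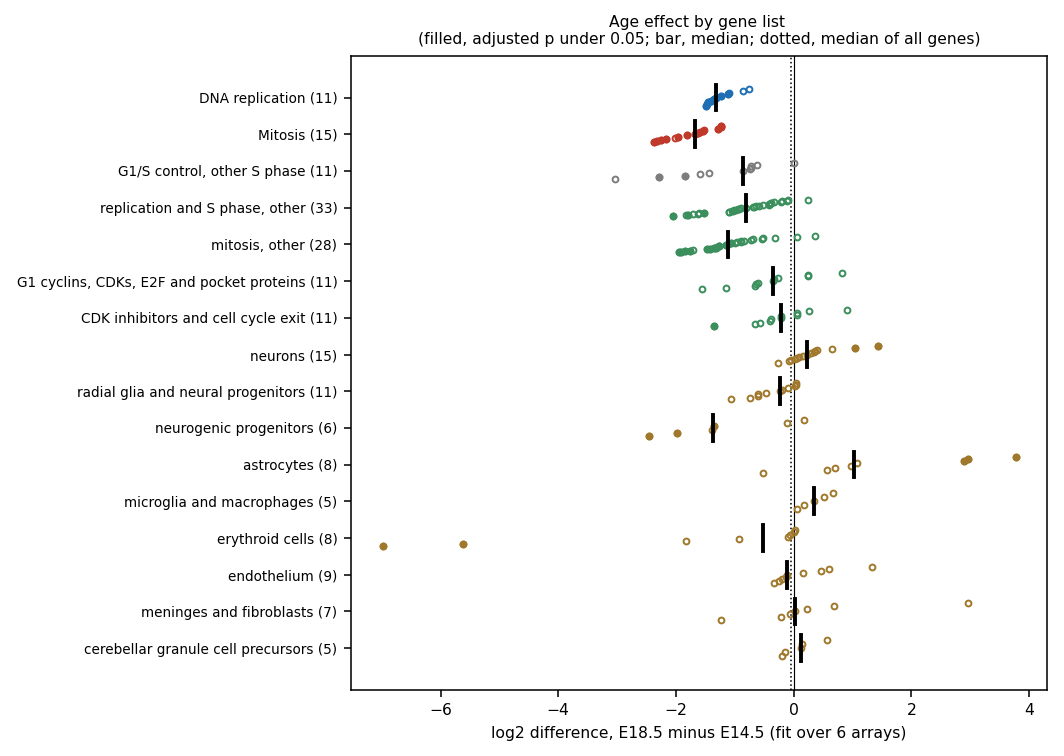
Log2 difference E18.5 minus E14.5 (x axis, fit over 6 arrays) of every tested gene of each list (y axis, number tested in brackets); filled points had an adjusted p under 0.05, black bars are medians and the dotted line is the median of all genes, -0.05. The 3 groups of cell division genes have medians of -1.32, -1.67 and -0.86, and the neurogenic progenitor markers one of -1.37.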

How the data were processed

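RNA of whole embryonic brains was read on 6 Affymetrix MG_U74Av2 arrays. The deposited values are linear intensities, some below 0; per the series' design text the authors used the Rosetta Resolver system, and the probe summary and any scaling are not given in the sources used here. Of 12488 probe sets, 66 controls were left out. Arrays were scaled to a common median, floored at an intensity of 2.39 (the 20th percentile) and log2 transformed; probe sets with a mean under 37.0 (the 40th percentile) were left out, leaving 7453. The number of arrays limits precision. Symbols came from the platform annotation, updated through Entrez identifiers to RefSeq names; 10833 probe sets had 1 symbol, 396 several and 1193 none.

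limma 3.58.1 in R 4.3.3 fitted genotype plus age as a factor, and genotype by age in days for the interaction, with an intensity trend. The p-values were adjusted by Benjamini-Hochberg. A run on simulated arrays checked the mean and sign of the age estimates and set no limit on false calls. Its noise was independent between probe sets, with no shifts of whole arrays. Values on every array are given for genes past the age threshold, for those with an unadjusted genotype or interaction p under 0.05, and for the 3 smallest and 3 largest age differences of each role; the 2 lowest and 2 highest genes of each pathway list are named, and the rest were named after their values were seen. The genes, lists and tests were chosen with earlier results of these data known. Alternatives covered scaling, floor, filter, trend, probe set choice and left-out arrays; leaving out single E14.5 and E18.5 arrays was added after seeing the data.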

Additional observations from a re-analysis of the deposited data

How the results depend on the processing

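The number of cell division genes that fell with age was 22 in the main setting, 32 without scaling, 26 with quantile normalization, 26 with a floor at the noise limit, 19 of 25 with a stricter filter and 21 with the mean over a gene's probe sets. It was 0 with no filter, with no intensity trend or without the E16.5 pair (replication, mitosis and the remaining genes each 0), and 0 to 3 with any 1 array left out (replication 0, mitosis 0 to 2, the rest 0 to 1). The remaining group's count of 2 became 7 without scaling, 4 with quantile normalization, 4 with the noise floor and 1 with the stricter filter. Over all probe sets, 111 passed for age (44 higher, 67 lower), against 352 without scaling (198 and 154), 267 with quantile normalization (154 and 113), 174 with the noise floor (80 and 94), 225 with the stricter filter (118 and 107), 4 with no filter, 0 with no trend, 3 without the E16.5 pair and 3 to 17 with 1 array left out. The first step passed for 1 probe set, against 118 without scaling, 2 with the noise floor, 4 with no filter, 2 with the stricter filter, 0 with no trend and 0 with either E16.5 array left out; 5 of the cell division genes passed without scaling, all lower. The second step passed for 0, against 62 without scaling and 1 with no filter, with 5 cell division genes without scaling, 4 of them lower. The difference of the steps passed for 0, against 57 without scaling, Tk1 among them, and 5 with no filter. Genotype passed for 3, against 110 without scaling, 8 with the noise floor, 0 with no filter, 0 with no trend, 14, 0 and 0 without the E14.5, E16.5 and E18.5 pairs and 0 with either E16.5 array left out; 2 cell division genes passed without scaling, 1 of them lower. The interaction passed for 0, against 27 without scaling. Without scaling the median genotype difference of all probe sets was 0.19.

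The share of the difference reached by E16.5 in Top2b+/+ brains moved from 42.6% to 83.6% without scaling and 55.4% with quantile normalization for replication, and from 43.3% to 72.1% and 45.4% for mitosis; the top2b-/- share of replication moved from 44.0% to 42.4% without scaling. Of single genes, Ccne1, at 0.01 in the main setting, ranged from -0.73 to 0.75 with 1 array left out; it changed sign to -0.69 without the Top2b+/+ E18.5 array and -0.73 without the top2b-/- E14.5 array. The cause of these changes was not tested, apart from the fewer arrays or other probe sets that an alternative fits. No paired analysis was possible because each group has 1 array; genotype is already a term of the model.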

Other observations

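Of the 42 cell division genes with a named probe set, 15 had more than 1, and the values above are those of the brightest. Some second probe sets gave similar values: Mcm3 had a second value of -1.19 beside -1.24, and Cdk4 -0.81 beside -0.73. Others did not. The second probe set of Mcm5 read 297, 396 and 89.3 in Top2b+/+ and 84.6, 89.5 and 380.3 in top2b-/- brains, so that it was low at E18.5 in one genotype and high in the other. The second probe set of Mki67 read 22.3, 43.9 and 69.0 in Top2b+/+ and 173, 117 and 88.4 in top2b-/- brains, lower with age in top2b-/- brains and higher with age in Top2b+/+ brains. Another probe set of Plk1 read 71.3, 101 and 51.3 against 54.9, 56.5 and 98.6. For Ccnd1 the second probe set had an age difference of -0.21 beside -0.73. Whether these probe sets read other transcripts or cross-hybridise was not tested.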
